A study of Mus musculus with 17 samples.

Results

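Replication origins are licensed by a small set of proteins, and the RNA of 10 of their genes was followed here in the mouse cerebellum: Orc1 and Orc6, Cdc6, Cdt1 and Mcm2, Mcm3, Mcm4, Mcm5, Mcm6 and Mcm7. The genes were chosen by name for their place in this pathway, with earlier results of these data already known. They are 10 of the 31438 genes summed in the series. All 10 passed the filter on low counts in every comparison below.

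Licensing takes place from the end of mitosis through G1. The origin recognition complex, of which Orc1 and Orc6 are subunits, binds an origin, and Cdc6 and Cdt1 then load the ring of Mcm2 to Mcm7, the core of the replicative helicase, which stays inactive until S phase. Many of these genes are targets of E2F transcription factors, and their RNA in the early postnatal cerebellum is known from the proliferating granule cell progenitors of its outer layer. Atr is the kinase gene of the replication checkpoint, and its product restrains the firing of licensed origins when forks stall.

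Whole cerebella of C57BL/6 mice at postnatal day 3 were measured by RNA sequencing, 1 library per sample, and every group carried Math1-Cre, a recombinase driven from the Math1 (Atoh1) gene and active in granule cell progenitors. The Bax Bak control group (4 libraries) carried Bax-loxP/loxP and Bak--/- with it, and the Atr Bax Bak group (5) carried Atr-loxP/loxP besides both of these. The p53 control group (3) carried p53-loxP/loxP, and the Atr p53 group (5) carried Atr-loxP/loxP and p53-loxP/loxP. Bax and Bak are effectors of mitochondrial cell death and p53 is a transcription factor of the DNA damage response. Bak is null in all cells of its background, but the loxP-flanked genes can be lost only in cells that have expressed Cre, so the other cells of the cerebellum keep Atr, Bax and p53. The labels give each sample a number of its own but do not say how the animals were bred or collected, so a p-value sets a difference against the spread of these samples only, and that spread may be technical.

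The 16 deep libraries held 42987953 to 100659645 estimated counts, where 1 count was worth at most 0.0235 CPM (counts scaled to a common library total). Replicate 3 of the Atr p53 group held 13601 counts and only 12 over the 10 genes, and it is left out of everything below. Its sample number repeats that of replicate 1 of the group with a suffix, so both may come from 1 mouse. Replicate 2 of the Atr p53 group stood apart. Its licensing RNAs summed to 557 CPM, against 848 to 956 CPM in the other 3 deep libraries of the group, and its share of counts from mitochondrially encoded genes was 9.02%, against 2.47% to 3.37%. The numbers of licensing genes called are given with and without it. Values of other gene lists, correlations and levels set against other genes include it unless stated. Granule cell markers, a list of 9 genes that holds Atoh1, summed to between 1705 and 3598 CPM, and none of the 9 was at 0 in a group.

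The genes named in the genotypes were read in every library. Bak1 was at 0.237 to 0.607 CPM in the 9 libraries with Bak--/- and at 32.6 to 41.6 CPM in the p53 background. Trp53 was at 29.3 to 45.5 CPM in the p53 background against 62.2 to 76.8 CPM, and Bax at 24.7 to 36.7 CPM in the Bax Bak background against 54.2 to 73.7 CPM. Summed Atr RNA did not pass edgeR's test between Atr-floxed and control libraries. Its mean was 43.4 ± 3.99 CPM (SD, n = 4) in the Bax Bak controls and 40.0 ± 3.07 CPM (n = 5) in the Atr Bax Bak group (log2 fold change -0.10, edgeR adjusted p = 0.28). It was 37.0 ± 1.11 CPM (n = 3) in the p53 controls and 37.1 ± 2.83 CPM (n = 4) in the Atr p53 group (0.016, edgeR adjusted p = 0.977). Which part of Atr the loxP sites flank is not given in the sources used here, so a sum over the whole gene does not check the deletion.

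The promoters show what the genes share in sequence. RefSeq promoter windows (GRCm38.p6, 250 bases before to 50 bases after a start) were at hand for 9 of the 10 genes, all but Mcm4. Each was searched on both strands for the E2F words TTTCCCGC, TTTGGCGC, TTTCGCGC and TTTGCCGC. At least 1 word was present in 7 of the 9, those of Mcm3, Mcm5, Mcm6, Mcm7, Cdc6, Cdt1 and Orc1, against 2.6% of the 27025 genes with a window. In the bases before the start alone it was 5 of 9 against 2.16%. The windows of Mcm2 and Orc6 held none of these letters. The stretches below are shown because they carry the words of the helicase, loader and recognition complex genes, with Mcm2 and Orc6 for comparison. Capitals mark the E2F words as they read on the gene's strand, and overlapping words run together.
Orc1, chr4:108579416-108579445, plus strand: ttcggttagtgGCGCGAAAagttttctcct
Orc6, chr8:85299602-85299631, plus strand: agtttggggagaatgggcagccggcggtgt
Cdc6, chr11:98908002-98908031, plus strand: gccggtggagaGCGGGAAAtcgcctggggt
Cdt1, chr8:122568036-122568064, plus strand: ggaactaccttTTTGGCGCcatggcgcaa
Mcm2, chr6:88898781-88898880, minus strand: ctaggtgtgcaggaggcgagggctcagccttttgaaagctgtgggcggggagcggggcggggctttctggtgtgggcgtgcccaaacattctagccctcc
Mcm5, chr8:75109312-75109411, plus strand: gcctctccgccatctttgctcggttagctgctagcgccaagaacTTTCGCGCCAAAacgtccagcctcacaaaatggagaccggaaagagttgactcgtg
Mcm6, chr1:128359731-128359830, minus strand: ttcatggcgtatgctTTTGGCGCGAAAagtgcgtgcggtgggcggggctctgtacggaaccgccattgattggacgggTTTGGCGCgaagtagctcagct

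In Mcm5 and Mcm6 a pair of words on opposite strands shares 4 bases, and Mcm6 carries another word closer to its start. Before and after are counted from the RefSeq start of the window, by which the word of Cdt1 lies after the start and those of Cdc6 and Orc1 lie before it. GENCODE, from which the gene positions below are taken, starts Cdc6, Orc1 and Mcm7 farther upstream, so that the words of Cdc6 and Orc1 and the upstream word of Mcm7 lie inside the GENCODE genes. CCAAT was present in 7 of the 9 windows against 41.1% of genes, and the Sp1 word GGGCGG in 7 of 9 against 38.2%. The word TTTGAA, which forms the core of the cell cycle element called CHR, was present only in Mcm2 among the 9, against 20.2% of genes. These matches are descriptions of letters in a window and were not tested for binding.

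The levels of the 10 genes were compared per transcript length first, since CPM of genes of unequal length cannot be set side by side. Length here is the mean length of a gene's transcripts weighted by their counts. In the Bax Bak controls Mcm6 was highest at 68.3 ± 3.26 CPM per kilobase (SD, n = 4), and Mcm7 followed at 62.9 ± 3.16. The other helicase genes and Orc6 formed a narrow band from 27.6 ± 1.14 (Mcm4) to 34.3 ± 1.25 (Mcm2). The loaders were lower, with Cdt1 at 15.3 ± 1.44 and Cdc6 at 6.37 ± 0.351, and Orc1 was lowest at 2.16 ± 0.165 CPM per kilobase. Within the band, Mcm3 and Mcm5 at 32.8 ± 1.11 and 32.0 ± 1.04 did not differ beyond their spread, and neither did Mcm4 and Orc6 (28.5 ± 0.114).

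The 6 subunits of the helicase ring are used in equal number, but their RNAs were not equal in any library. The highest of the 6 stood 2.37 to 2.64 times above the lowest per kilobase over the 16 libraries, and the group means of this ratio lay between 2.49 and 2.58. Mcm4 was lowest in all 11 libraries outside the Atr Bax Bak group. Mcm6 was highest in these libraries except Bax Bak control replicate 3 and Atr p53 replicate 2, where Mcm7 was highest. Inside the Atr Bax Bak group Mcm5 was lowest in 4 of 5 libraries. There Mcm7 rather than Mcm6 was highest in all 5, at 45.4 ± 4.03 against 36.1 ± 4.67 CPM per kilobase (SD, n = 5). Of the 31-base words in Mcm7 transcripts 26.8% also occur in another gene, with the largest number in Gm5487. The level of Mcm7 thus depends on how reads were divided among such genes, to an extent that was not measured. By the length of the most abundant transcript in place of the weighted length, Mcm7 was at 40.5 ± 3.59 CPM per kilobase there and the ranks of the 10 genes were the same in each of the 4 groups.

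**Figure D1:**
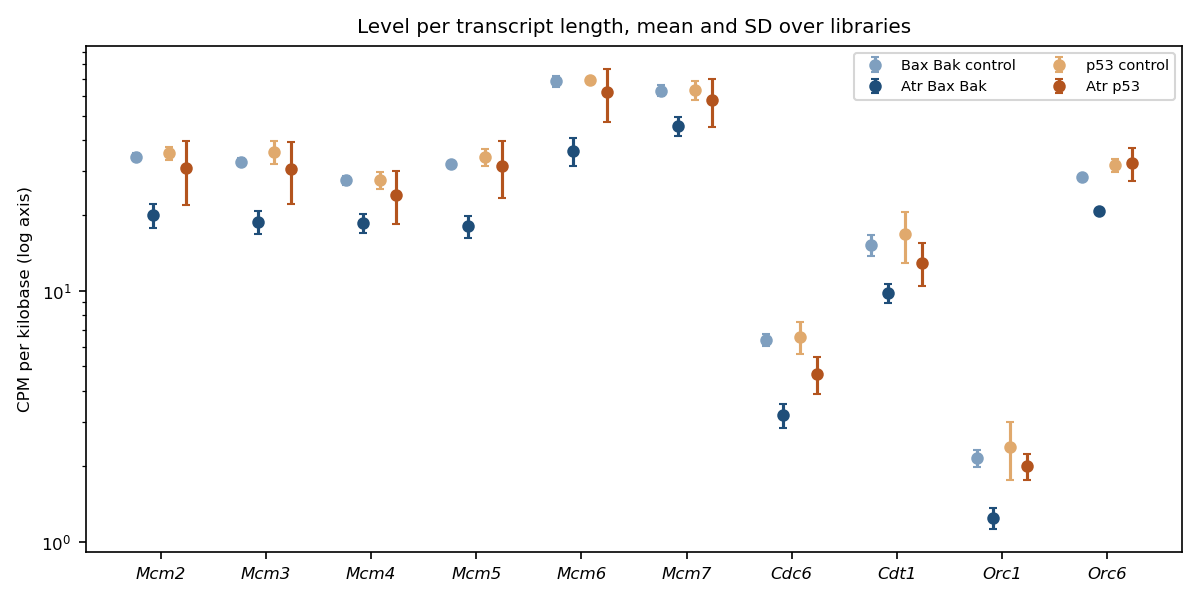
Level of each licensing gene in CPM per kilobase of transcript (log axis), as mean and SD over the deep libraries of each group (4 Bax Bak control, 5 Atr Bax Bak, 3 p53 control, 4 Atr p53). Mcm6 and Mcm7 are at the top and Orc1 at the bottom in every group, and the Atr Bax Bak points are the lowest of each gene.

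The first comparison set the Atr Bax Bak libraries against the Bax Bak controls, which asks how the RNAs stand where Atr is floxed and mitochondrial cell death is blocked. All 10 licensing genes were lower in the Atr Bax Bak libraries, from 1.36-fold (Orc6) to 1.97-fold (Cdc6), and for none of them did the groups overlap. Tested by edgeR (quasi-likelihood F-test, Benjamini-Hochberg adjusted), 10 of 10 fell at an adjusted p below 0.05, where 22% of the 17405 genes tested fell and 44.5% changed. Their median log2 fold change was -0.77, against 0.042 over all genes tested. Groups that did not overlap, with the Atr Bax Bak group lower, were found in 21.1% of all genes tested.

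Of the recognition complex, Orc1 is an ATP-binding subunit that is lost from the complex in S phase in mammalian cells (chromosome 4, 108579423 to 108614833, GRCm38). Orc1 was at 6.76, 5.69, 5.87 and 6.18 CPM in the Bax Bak controls and at 3.48, 3.44, 3.63, 4.02 and 3.07 CPM in the Atr Bax Bak libraries. The highest of the latter stayed below the lowest control. The log2 fold change was -0.78 ± 0.11 (SE, edgeR adjusted p = 0.000194). Orc6, the smallest subunit (chromosome 8, 85299632 to 85308278), stood within a very narrow range in the controls, at 38.4, 38.2, 38.6 and 38.4 CPM. In the Atr Bax Bak libraries it was at 28.4, 27.5, 28.6, 28.4 and 27.0 CPM, again with no overlap. Its log2 fold change of -0.44 ± 0.040 (SE), with an edgeR adjusted p of 1.52e-05, had the smallest size and the smallest error of the 10.

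Cdc6 is the ATPase that joins the origin-bound complex so that it can receive the helicase ring (chromosome 11, 98907801 to 98923940). It was at 20.3, 22.1, 20.1 and 19.6 CPM in the controls and at 9.41, 8.70, 10.9, 11.4 and 10.9 CPM in the Atr Bax Bak libraries. All 5 lay far below the lowest control, a 1.97-fold difference and the largest of the 10 (log2 fold change -0.98 ± 0.088, SE, edgeR adjusted p = 1.35e-05). Cdt1 carries the ring to the origin (chromosome 8, 122568015 to 122573554). Cdt1 was at 29.9, 31.9, 37.0 and 34.8 CPM in the controls and at 19.4, 21.3, 24.2, 22.3 and 20.3 CPM in the Atr Bax Bak libraries. The groups stood apart here too, though the controls spread more than for Cdc6 (log2 fold change -0.62 ± 0.079, SE, edgeR adjusted p = 0.000109).

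Among the helicase genes Mcm6 (chromosome 1, 128331590 to 128359664) differed most. It was at 207, 218, 196 and 200.05 CPM in the controls and at 96.1, 101, 126, 121 and 97.7 CPM in the Atr Bax Bak libraries. No Atr Bax Bak library came near the controls, and the log2 fold change was -0.90 ± 0.085 (SE, edgeR adjusted p = 2.29e-05). Mcm5 (chromosome 8, 75109569 to 75128439) was at 105, 108, 108 and 113 CPM in the controls and at 54.8, 56.9, 70.0, 63.6 and 59.9 CPM in the Atr Bax Bak libraries. Its log2 fold change was -0.81 ± 0.067 (SE, edgeR adjusted p = 8.47e-06). Mcm5 forms the gate of the ring together with Mcm2, and its highest Atr Bax Bak library lay well under its lowest control.

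Mcm2 (chromosome 6, 88883474 to 88898780), the other subunit at the gate, fell from 116 ± 4.21 CPM (SD, n = 4) to 67.7 ± 7.42 CPM (n = 5), with a log2 fold change of -0.76 ± 0.073 (SE). Mcm3 (chromosome 1, 20802968 to 20820312), which recruits the ring to the origin-bound loaders, fell from 98.9 ± 3.36 to 56.8 ± 6.05 CPM (-0.78 ± 0.072). Mcm4 (chromosome 16, 15623897 to 15637400), a target of the kinase that fires origins, was 99.0 ± 4.1 CPM in controls and 66.9 ± 6.03 CPM in the Atr Bax Bak libraries, a fall of 0.55 (SE 0.064). Mcm7 (chromosome 5, 138164583 to 138172422), which with Mcm4 and Mcm6 can act as a helicase by itself, showed the smallest fall of the ring, of 0.45 (SE 0.065), from 166 ± 8.35 to 119.9 ± 10.6 CPM. For each of these 4 genes the edgeR adjusted p lay between 1.53e-05 and 0.000233. The 95% intervals of Mcm6 (-1.09 to -0.71) and Mcm7 (-0.59 to -0.31) did not overlap, a description of unequal change within the ring that was not tested.

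**Figure D2:**
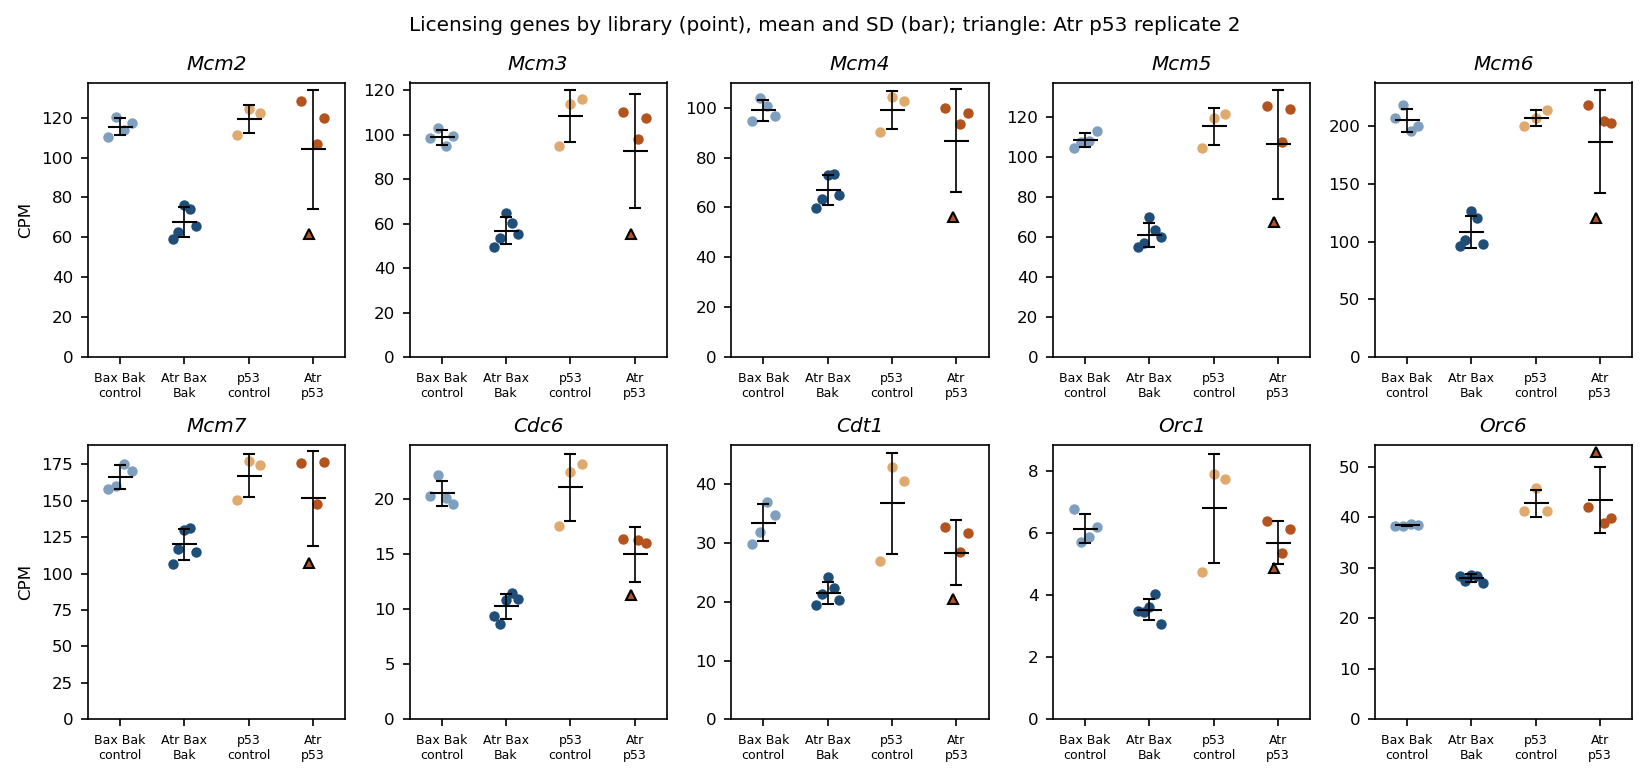
Level in CPM (axes from 0) of each licensing gene in every deep library, as points by group, with the mean and SD of the group as bars; the triangle is replicate 2 of the Atr p53 group. The 5 Atr Bax Bak points lie below all Bax Bak controls in each panel, and the triangle is the lowest Atr p53 point in 9 panels and above all other points for Orc6.

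All 5 Atr Bax Bak samples share a first sample number that no control carries, so that number and the Atr genotype cannot be told apart. The controls carry 2 first numbers, and all 10 genes fell against each pair of controls taken alone, with Cdt1 at -0.51 against the pair with 100019 and -0.77 against the pair with 1842. In whole tissue, fewer cells of a type and less RNA per cell cannot be told apart, here and below. Granule cell markers moved with the licensing genes: 8 of the 9 fell, and their summed level ranged from 1993 to 2376 CPM in the Atr Bax Bak libraries and from 2599 to 3598 CPM in the controls. Markers of other cells moved the opposite way. All 6 markers of astrocytes and Bergmann glia rose (3863 to 5300 CPM summed, against 2598 to 3035 CPM), as did all 5 of microglia (99.1 to 125 against 64.2 to 89.5 CPM), all 4 of inhibitory interneurons (419 to 525.9 against 261 to 328 CPM) and 4 of 5 of Purkinje cells (1438 to 2045 against 1277 to 1457 CPM). Of 6 oligodendrocyte lineage markers 5 rose and 1, Pdgfra, fell (827 to 1549 against 569 to 841 CPM). Of 5 endothelial and pericyte markers 1 rose, of 3 brainstem markers tested 1 rose, and none of 4 meningeal or 4 choroid plexus markers passed the test. Summed choroid plexus markers spread widely, from 59.2 to 3672 CPM in the controls and from 26.3 to 2677 CPM in the Atr Bax Bak libraries. In the controls they split by first number, at 3672 and 1750 CPM with 100019 and at 59.2 and 60.4 CPM with 1842. Summed granule cell markers split too, at 2618 and 2599 CPM with 100019 and at 3598 and 3473 CPM with 1842. No marker was at 0 in all libraries of a group. The mitochondrial share of counts was 3.53% to 4.35% in the Atr Bax Bak libraries and 1.81% to 2.55% in the controls. The part of these in the fall of the licensing genes was not tested.

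The same comparison in the p53 background gave no call. Of the 10 licensing genes 0 passed edgeR's test in the Atr p53 libraries against the p53 controls, where 0.0461% of the 17348 genes tested, 8 in all, were called and all 8 were higher. DESeq2 and limma-voom called 0 of the 10 as well, and 1, Cdc6, had an unadjusted edgeR p below 0.05. The median log2 fold change was -0.18, against 0.010 over all genes tested. All Atr p53 libraries share their first sample number with 1 of the 3 controls, and against that control alone the median was -0.0065, with 5 of 10 genes below 0. Without replicate 2 of the Atr p53 group the median was -0.023, with 0 of 10 called and 0.0117% of genes called. The granule cell markers summed to 1705 to 2211 CPM in the Atr p53 libraries and 2196 to 2345 CPM in the p53 controls. Of the 9 markers 0 passed, 8 were below 0 with a median of -0.29, and 4 had groups that did not overlap. An unadjusted edgeR p below 0.05 was found for 5, a threshold at which the share of all genes was not counted. The part of the markers in the values of the licensing genes was not tested.

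Cdc6 was the 1 gene whose groups did not overlap in this background. It was at 16.4, 11.3, 16.3 and 15.99 CPM in the Atr p53 libraries and at 17.6, 22.4 and 23.2 CPM in the p53 controls. The lowest control, replicate 1, lay close to the 3 upper Atr p53 libraries. The log2 fold change was -0.48 ± 0.16 (SE, 95% interval -0.84 to -0.12), with an unadjusted p of 0.0135 and an edgeR adjusted p of 0.612 (0.141 to 1.0 over the alternatives). Groups that did not overlap, with the Atr p53 group lower, were found in 4.62% of all genes tested. Without replicate 2 the value was -0.37 ± 0.12 (SE, edgeR adjusted p = 0.489). Control replicate 1 is the only control that shares its first sample number with the Atr p53 libraries, and against it alone Cdc6 stood at -0.23, Cdt1 at 0.077 and Orc1 at 0.26 on the log2 scale.

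Cdt1 was at 32.8, 20.5, 28.5 and 31.6 CPM in the Atr p53 libraries and at 26.9, 42.9 and 40.5 CPM in the p53 controls. The groups overlapped through control replicate 1, and the log2 fold change of -0.36 had a 95% interval of -0.80 to 0.08. Orc1 was at 6.39, 4.88, 5.35 and 6.12 CPM against 4.74, 7.88 and 7.73 CPM, with the same control lowest (-0.24, 95% interval -0.70 to 0.21). Control replicate 1 stood below the other controls in all 10 licensing genes, which summed to 842 CPM in it against 964 and 965 CPM. For Orc1 it stood below every Atr p53 library too. Without this control the median log2 fold change of the 10 genes was -0.24.

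The helicase genes of the p53 background depended on replicate 2. Mcm6 was at 218, 120.4, 205 and 202 CPM in the Atr p53 libraries and at 199.9, 207 and 214 CPM in the p53 controls. Of the 4 Atr p53 libraries 3 lay among or above the controls, while replicate 2 lay within the range of the Atr Bax Bak group. The log2 fold change was -0.14 (95% interval -0.55 to 0.27), and 0.021 (95% interval -0.11 to 0.15) without replicate 2. Mcm5 was at 126, 67.5, 108 and 124 CPM against 105, 119.5 and 121 CPM, with the same library low (-0.11, and 0.060 without it). Mcm2, Mcm3, Mcm4 and Mcm7 gave -0.19, -0.21, -0.18 and -0.13 with replicate 2 and lay between -0.029 and 0.0059 without it.

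Orc6 departed from the other 9 in replicate 2. It was at 42.0, 52.99, 38.9 and 39.9 CPM in the Atr p53 libraries, and 41.2, 45.8 and 41.3 CPM in the p53 controls. The value of 52.99 CPM in replicate 2 was the highest of all 16 libraries, where the other 9 genes were at their lowest within the group. The log2 fold change was 0.031 (95% interval -0.23 to 0.29), and -0.075 (95% interval -0.25 to 0.10) without that library. Across the 16 libraries each of the other 9 genes followed the mean of the remaining members on the log2 scale with a Pearson r of 0.928 to 0.985, and Orc6 with 0.640. These correlations are descriptions over libraries that share their group structure.

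**Figure D3:**
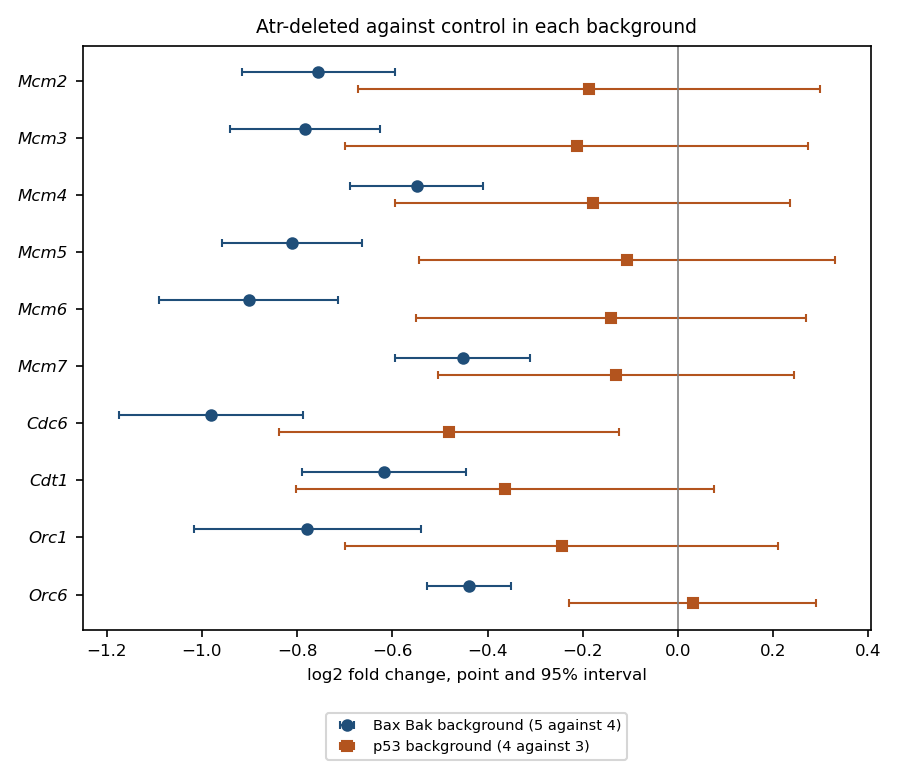
Log2 fold change of Atr-floxed against control libraries, as point and 95% interval, in the Bax Bak background (circles, 5 against 4) and the p53 background (squares, 4 against 3). All 10 intervals lie below 0 in the Bax Bak background, and in the p53 background 9 of 10 include 0, all but that of Cdc6.

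A call in the Bax Bak background and none in the p53 background does not show that the effects differ, so the difference itself was tested as an interaction over the 16 libraries. For all 10 genes the effect in the p53 background minus that in the Bax Bak background was above 0, and for 3 it passed edgeR's test, where 8.09% of the 18166 genes tested passed with a difference above 0. The 3 were Mcm5 (0.71 ± 0.20, SE, edgeR adjusted p = 0.027), Mcm6 (0.77 ± 0.20, edgeR adjusted p = 0.0176) and Orc6 (0.48 ± 0.12, edgeR adjusted p = 0.0107). The median of the 10 was 0.52, against -0.019 over all genes tested. Unadjusted, 7 of the 10 had p below 0.05 by edgeR, a threshold at which the share of all genes was not counted. The other 7 ranged from 0.26 (Cdt1, 95% interval -0.18 to 0.71) to 0.58 (Mcm3, 95% interval 0.09 to 1.06). Markers of other cells moved in the interaction as well. The difference was below 0 and passed for 4 of 6 astrocyte and Bergmann glia markers, 4 of 6 of the oligodendrocyte lineage, 4 of 4 of inhibitory interneurons, 2 of 5 of microglia and 1 of 5 of Purkinje cells, and above 0 for 1 of 9 granule cell markers. Without Atr p53 replicate 2 these counts were, in the same order, 5, 5, 4, 3, 1 and 3, and 1 of 3 brainstem markers passed below 0. Their part in the differences of the licensing genes was not tested. The interaction is built from the same libraries as both comparisons above and is no further evidence for either.

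Single libraries moved these calls. Without replicate 2 of the Atr p53 group 8 of the 10 genes passed, all but Cdt1 and Orc1, where 10.8% of all genes passed in that direction. Their differences then ranged from 0.37 (Orc6, edgeR adjusted p = 0.00237) to 0.93 (Mcm6, edgeR adjusted p = 0.000101). That library was singled out in part by its low values of these genes. Leaving it out therefore raises the differences of the genes low in it by that choice, and the larger count is no further evidence. Mcm5 missed the threshold without Bax Bak control replicate 4 (0.69, edgeR adjusted p = 0.0502) and without p53 control replicate 1, 2 or 3 (0.65 to 0.75, edgeR adjusted p = 0.0541 to 0.0579). Over all alternatives the adjusted p of Mcm5 ranged from 0.000107 to 0.0579. Mcm6 and Orc6 passed under every alternative run, with adjusted p up to 0.0453 and 0.0394. Cdc6 passed without Atr Bax Bak replicate 4 (0.59, edgeR adjusted p = 0.0466), with 4 of 10 called, where 1665 of 18109 genes passed above 0.

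**Figure D4:**
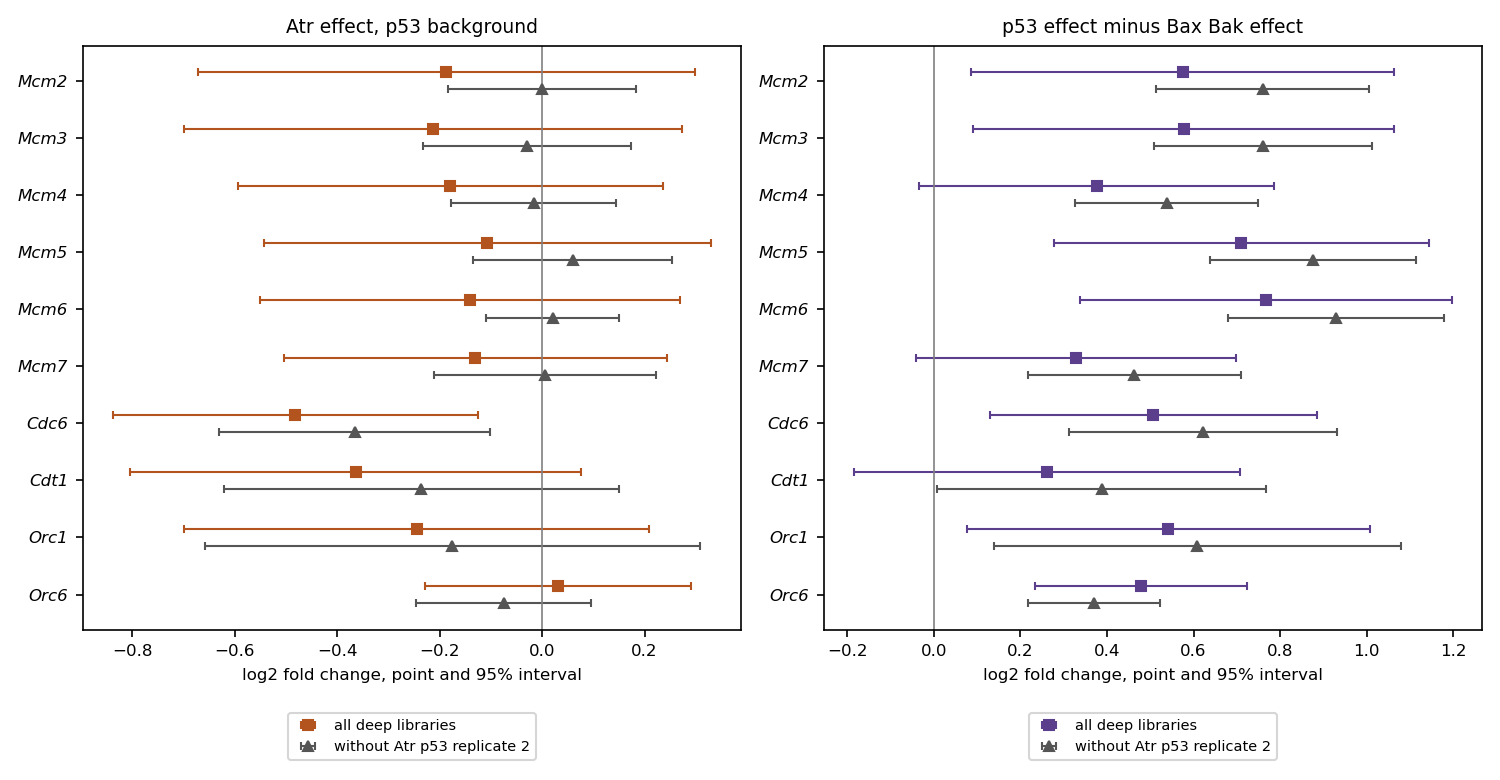
Left, log2 fold change of Atr p53 against p53 control libraries, and right, the difference between the Atr effects of both backgrounds, as point and 95% interval with all deep libraries (squares) and without Atr p53 replicate 2 (triangles). Without that library the intervals of the 6 helicase genes narrow around 0 on the left and all lie above 0 on the right. The library was singled out in part by its low values of these genes, and leaving it out moves their points this way by that choice.

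The levels were also ordered over the 4 groups, with library sizes scaled over all 16 libraries. The Atr Bax Bak mean was the lowest for all 10 genes, and the order of the other 3 groups depended on Atr p53 replicate 2. With it, the order for 9 genes was Atr Bax Bak, Atr p53, Bax Bak control, p53 control, from low to high, and for Orc6 it was Atr Bax Bak, Bax Bak control, p53 control, Atr p53. Without it, 4 genes (Mcm4, Cdc6, Cdt1 and Orc1) had the first of these orders. The Atr p53 mean of Mcm2, Mcm3, Mcm5, Mcm6 and Mcm7 then stood above that of the Bax Bak controls (Mcm5 at 119 ± 10.1 CPM, SD, n = 3, against 108 ± 3.52 CPM, n = 4), and for Mcm5 and Mcm6 above that of the p53 controls too. For Orc6 it then lay between those of both control groups, at 40.3 ± 1.54 CPM. The control groups were not shown to differ: 0 of 10 genes passed edgeR's test (1 without Atr p53 replicate 2, Orc6, at 0.16 and an edgeR adjusted p of 0.0374), where 18% of all genes did with all 16 libraries and 13.7% were higher without it. Unadjusted, 0 of the 10 had p below 0.05 with all 16 libraries, and DESeq2 and limma-voom called 0. Their differences ranged from 0.0011 (Mcm4) to 0.16 (Orc6) on the log2 scale, with 95% intervals as wide as -0.32 to 0.41 (Mcm2).

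The Atr-floxed groups differed for all 10 genes, each higher in the Atr p53 libraries, where 22.8% of all genes were higher. The differences ran from 0.34 (Mcm7) and 0.38 (Mcm4) to 0.78 (Mcm6) and 0.80 (Mcm5) on the log2 scale. Calls of the smaller differences depended on single libraries. Cdt1 missed the threshold without Atr Bax Bak replicate 1 or without Atr p53 replicate 1, 4 or 5, with adjusted p of 0.0508 to 0.0899. Mcm7 missed it without Atr Bax Bak replicate 1 or Atr p53 replicate 1 or 5, and Mcm4 without Atr p53 replicate 1, 4 or 5. The count was then 7 or 8, where 3833 to 4026 of all genes tested were higher. Without Atr p53 replicate 2 all 10 passed, with 23.4% of genes higher. In this comparison 5 of 6 astrocyte and Bergmann glia markers, 4 of 6 of the oligodendrocyte lineage and 4 of 4 of inhibitory interneurons were lower in the Atr p53 libraries, as were 3 of 5 of endothelial cells and pericytes and 2 of 4 of the meninges. Of 9 granule cell markers 2 were higher and 2 lower, as were 2 and 2 of 5 of Purkinje cells and 1 and 2 of 5 of microglia, and 1 of 4 choroid plexus markers was higher. The part of these was not tested. Background, deposited table and sample number differ together between these groups and cannot be told apart. Cdc6 in the Atr p53 libraries (11.3 to 16.4 CPM) lay between the Atr Bax Bak range (8.70 to 11.4 CPM) and the Bax Bak control range (19.6 to 22.1 CPM). Its range met that of the Atr Bax Bak group only through replicate 2.

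The other genes of the pathway were counted by lists of genes that share a role. Of the 5 remaining genes of the recognition complex and its partner Lrwd1, 4 fell in the Atr Bax Bak libraries and 1, Lrwd1, did not pass, with a median of -0.17. Orc2, which sits beside Orc3 in the complex, fell most, by 0.48 on the log2 scale, from 65.2 ± 1.35 to 46.2 ± 2.39 CPM. Orc5 (-0.17) and Orc3 (-0.16) fell less, and missed the threshold against the controls with first number 100019 alone (edgeR adjusted p = 0.0561 and 0.055). In the p53 background 0 of the 5 were called, and in the interaction 1 was, Orc2 (0.59, edgeR adjusted p = 0.0001).

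Of 14 genes that control licensing, by holding Cdt1 or destroying it or by acting on the ring, 10 fell and 0 rose, with a median of -0.37. Dtl, the adaptor of the ligase that destroys Cdt1 on replicating DNA, fell from 54.0 ± 2.14 to 25.7 ± 2.8 CPM (-1.05). Skp2, of another ligase for Cdt1, fell by 0.64 and Fbxo5, an inhibitor of the anaphase-promoting complex, fell by 0.99 on the log2 scale. Geminin (Gmnn), the protein that holds Cdt1 inactive after S phase starts, lies outside the naming rule and was chosen after its values were seen. Gmnn was at 19.3, 17.8, 16.4 and 17.2 CPM in the Bax Bak controls and 8.52, 6.93, 9.63, 9.34 and 6.52 CPM in the Atr Bax Bak libraries, a log2 fold change of -1.09. In the Atr p53 libraries Gmnn was at 21.9, 32.7, 22.5 and 20.8 CPM, so that replicate 2 was highest for Gmnn as it was for Orc6. The 4 that did not pass were Gmnc, Mcidas, Fzr1 and Ddb1. In the p53 background 0 of 14 were called, and in the interaction 6 were, among them Gmnn (1.19), Dtl (0.63) and Skp2 (0.55). Without Atr p53 replicate 2 the interaction count was 8 of 14.

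Of 15 genes that turn the licensed ring into a working fork, 11 fell and 0 rose, with a median of -0.60. Topbp1, which brings firing factors to the origin and activates Atr, fell from 135 ± 2.55 to 87.7 ± 5.34 CPM (-0.61). Gins1 (-1.01) and Gins3 (-0.83), subunits of the GINS complex of the active helicase, fell too. The 4 that did not pass were Mtbp, Recql4, Rif1 and Wdhd1, the last at 0.38 with an SE of 0.55. In the p53 background 0 of 15 were called and in the interaction 11 were, with Gins1 at 0.93. Without Atr p53 replicate 2 the interaction count was 10 of 15. Of the relatives of the ring, Mcm8 fell by 0.81 and Mcm9 did not pass, and in the interaction Mcm8 passed (0.94, edgeR adjusted p = 0.00234).

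A reference of 10 genes of mitosis and division shows how far licensing RNAs moved with other cell cycle RNAs. All 10 fell in the Atr Bax Bak libraries, with a median of -0.90, among them Ccna2 (-1.07), Bub1 (-1.11) and Aurkb (-0.81), the 3 of smallest p. Of the 10, 0 were called in the p53 background, and all 10 passed in the interaction, with a median of 0.92. Set against this reference within each library, the mean log2 level of the 10 licensing genes stood at -0.97 ± 0.047 (SD, n = 4) in the Bax Bak controls and -0.80 ± 0.061 (n = 5) in the Atr Bax Bak libraries. It was -0.70 ± 0.22 (n = 3) in the p53 controls and -0.97 ± 0.082 (n = 4) in the Atr p53 libraries. The Atr Bax Bak libraries stood above their controls with no overlap, and the Atr p53 libraries below the mean of theirs with ranges that overlapped. These differences were not tested.

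**Figure D5:**
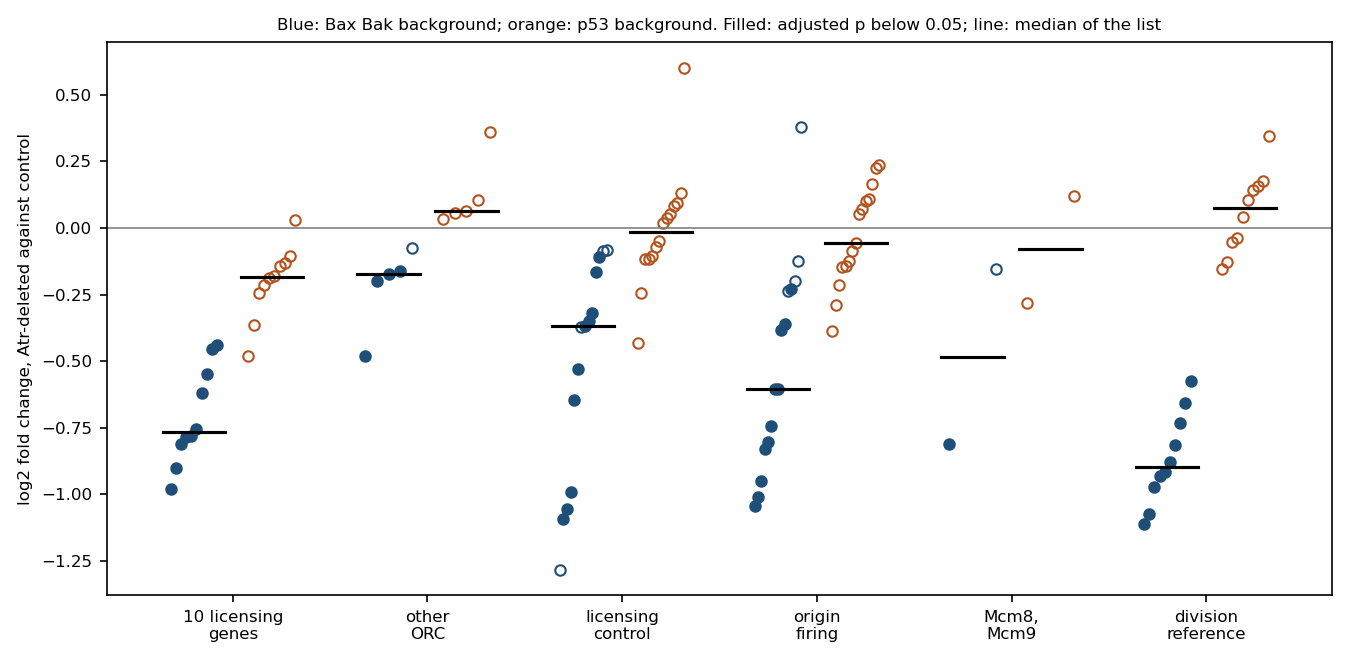
Log2 fold change of Atr-floxed against control libraries for each gene of the licensing genes and the other lists, in the Bax Bak background (blue) and the p53 background (orange), with filled points for an adjusted p below 0.05 and a line at the median of each list. Every blue point of the licensing genes and of the division reference is filled and below 0, and no orange point is filled.

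The genes most like the licensing genes over the 16 libraries were found by the Pearson correlation of log2 CPM with the mean of the 10, among 11020 genes with a mean of at least 10 CPM. They were E2f8 (r = 0.989), Larp7 (0.988), Rrm2 (0.987), Fen1 (0.985) and Mybl2 (0.983). E2f8 encodes a repressor of the E2F family, Rrm2 a subunit of ribonucleotide reductase, Fen1 a flap endonuclease of lagging strand synthesis, Mybl2 a transcription factor of the cell cycle and Larp7 a binding protein of the 7SK RNA. E2f8 fell from 27.1 ± 1.65 to 14.2 ± 1.2 CPM in the Atr Bax Bak libraries, and it passed in the interaction (0.73, edgeR adjusted p = 0.00918), as did Rrm2 (0.63, edgeR adjusted p = 0.012). The other 3 did not pass, with edgeR adjusted p of 0.0515 (Larp7), 0.0539 (Mybl2) and 0.0757 (Fen1). The correlation is a description over libraries that share 4 groups and replicate 2 of the Atr p53 group.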

How the data were processed

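RNA of 17 cerebellum samples was measured after removal of the meninges, with a stranded, poly-A selected TruSeq library and 2 lanes per sample, per the labels' protocols. The authors deposited estimated counts per transcript and lane, in 1 table for each background, and the submitters' processing notes list kallisto 0.42.4 and edgeR, and as builds mm9 and GRCm38, with no role for either. Whether counting used strand is not given in the sources used here. Kallisto divides reads among similar transcripts, so genes with near-identical copies depend on that division.

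Lanes were added and transcripts were summed to genes with GENCODE M21 (92284 of 94080 identifiers matched, and the rest held 0.779% to 1.04% of counts). The expected counts were rounded. Depth was 42987953 to 100659645 per deep library. The library of 13601 counts, whose 2 lane columns were identical, was left out. The 2 backgrounds had separate fits in edgeR 4.0.16 (R 4.3.3, TMM scaling, default filter by group, robust quasi-likelihood F-test, Benjamini-Hochberg adjustment over all genes tested, threshold 0.05). The interaction and the comparisons across backgrounds were fitted over 16 libraries. Standard errors are the log2 fold change over the square root of F, and 95% intervals use the t quantile at edgeR's degrees of freedom. CPM is scaled by TMM over the 16 libraries. Alternatives were 2 other scalings, 2 filters, DESeq2 1.42.0, limma 3.58.1 (voom), each lane, coding transcripts only, each library left out, the shallow library kept, 1 fit for all, and controls by first sample number. The fits were also run on simulated counts with the same spread for every gene and no deviating library, which does not measure their error rates in these data.

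The members and lists were chosen with earlier results of these data known. All 10 members are named. Of each other list, up to 3 genes of smallest p past the threshold without Bax and Bak are named, with any called without p53 and any of opposite direction. Gmnn and the genes behind counts of 5 or fewer were named after their values were seen.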

Additional observations from a re-analysis of the deposited data

Results flagged for a closer look

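In replicate 2 of the Atr p53 group 3 of the licensing genes lay far from the other 3 libraries, whose own values were close together. Mcm4 was at 56.0 CPM (93.7 to 99.99 CPM in the others), Mcm6 at 120.4 CPM (202 to 218 CPM) and Cdc6 at 11.3 CPM (15.99 to 16.4 CPM). Dixon's criterion at 95% was applied to 30 sets of a gene and a group of 4 or 5 libraries and marked these 3. Chance marks about 1 in 20 of independent sets. The sets here share libraries and all 3 marks fall in 1 library, so the number of marks cannot be set against that rate.

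The Atr effect differed between the backgrounds by the interaction test for Mcm5 (0.71 on the log2 scale), Mcm6 (0.77) and Orc6 (0.48), each less negative in the p53 background. The shallow library of the Atr p53 group, which no comparison used, held 12 counts over the 10 genes: 5 for Mcm6, 3 for Mcm7, 2 for Mcm5, 1 each for Mcm2 and Mcm4, and 0 for the other 5.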

How the results depend on the processing

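All 10 licensing genes fell in the Atr Bax Bak libraries under the 21 alternatives run, with Cdc6 from -1.04 to -0.95 and Orc6 from -0.49 to -0.42. In the p53 background 0 of 10 were called under any of the 19 run. In the interaction the main fit called 1469 of 18166 genes above 0. DESeq2 called 6 of 10 (also Mcm2, Mcm3 and Cdc6), with 2010 of 18166 genes called above 0. A filter at a mean of 1 CPM gave 4 of 10, with 1846 of 14515 genes. Leaving out 1 library gave 2 to 8 of 10, with 770 to 1956 genes. Between the control groups leaving out 1 library gave 0 to 1 calls. The values that changed sign were not called. In the p53 background, leaving out 1 library gave -0.19 to 0.060 for Mcm5, -0.22 to 0.021 for Mcm6, -0.21 to 0.0059 for Mcm7 and -0.075 to 0.082 for Orc6, and each of these signs turned without Atr p53 replicate 2. With the 1 control that shares the first sample number, whose spread is assumed to be that of the other group, Mcm5 was at 0.025, Mcm7 at 0.018, Cdt1 at 0.077 and Orc1 at 0.26. Between the control groups Mcm4 was at -0.0019 without a filter, -0.012 at a mean of 1 CPM, -0.00091 by limma-voom and -0.0068 in lane 2, and Mcm7 at -0.0027 at a mean of 1 CPM. Leaving out 1 library gave -0.040 to 0.063 for Mcm4, -0.022 to 0.039 for Mcm6, -0.034 to 0.082 for Mcm7 and -0.035 to 0.15 for Cdc6 in that comparison. In the Bax Bak background Ap4m1 was at -0.036 with coding transcripts only and -0.10 with the controls of first number 1842, and leaving out 1 library gave -0.10 to 0.12. The cause was not tested. No paired analysis was possible because the labels give sample numbers and no replicate number that groups share. Depth limits the licensing genes little, with at least 183 counts each in every deep library, but only 4 and 3 deep libraries stand behind the p53 comparison.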

Other observations

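Of the licensing genes 4 start within 1000 bases of a coding gene on the opposite strand, and these neighbours did not all move with them. Prkdc, the catalytic subunit of the DNA-dependent protein kinase, starts the farthest away, next to Mcm4, and stood at a log2 fold change of -0.085 in the Atr Bax Bak libraries (edgeR adjusted p = 0.322), where Mcm4 fell by 0.55. Ap4m1, a subunit of an adaptor complex of vesicles, starts 420 bases from Mcm7 and stood at 0.032 (edgeR adjusted p = 0.792), where Mcm7 fell by 0.45. Vps35, a subunit of the retromer, starts 170 bases from Orc6 and fell by 0.42, next to 0.44 for Orc6. Prpf38a, a splicing factor gene, starts 87 bases from Orc1 and fell by 0.39, next to 0.78 for Orc1. In the interaction Vps35 (0.43, edgeR adjusted p = 0.0227) and Prpf38a (0.50, edgeR adjusted p = 0.0241) passed. Orc6 and Vps35 overlap on opposite strands, and Mcm7 overlaps Ap4m1 and the coding gene Cops6 in the same way. Without stated use of strand, reads from a stretch that both genes transcribe cannot be told apart.

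The transcripts behind the sums can be compared for 7 of the 10 genes, since Mcm4, Mcm5 and Cdt1 have 1 annotated transcript each. For Mcm7 the shares of the Bax Bak controls and the Atr Bax Bak libraries did not overlap in 5 of its 10 transcripts. How often shares separate in this way over all transcripts was not counted, and Mcm7 shares many words with other genes. Mcm7-209, a short coding transcript, held 5.72% ± 1.12 (SD, n = 4) in the controls and 2.56% ± 0.705 (n = 5) in the Atr Bax Bak libraries. Mcm7-204, also coding, held 5.22% ± 0.793 and 7.59% ± 0.574. The retained-intron transcripts Mcm7-202, Mcm7-203 and Mcm7-205 held 0.802%, 0.690% and 0.370% in the controls and 2.25%, 1.52% and 1.07% in the Atr Bax Bak libraries. For Mcm2 the retained-intron transcript Mcm2-205 held 0.134% ± 0.134 and 0.448% ± 0.0792, with no overlap, and the main coding transcript 99.8% ± 0.141 and 99.5% ± 0.103, also with none. Cdc6-202 held 65.8% ± 2.38 (SD, n = 4) of Cdc6 counts in the Bax Bak controls and 67.2% ± 1.72 (n = 5) in the Atr Bax Bak libraries, a difference within the spread. Mcm6-203, a longer coding transcript, held 6.76% ± 1.2 of Mcm6 in the Bax Bak controls, 8.51% ± 0.745 in the Atr Bax Bak libraries, 4.23% ± 0.316 (n = 3) in the p53 controls and 6.41% ± 1.15 (n = 4) in the Atr p53 libraries. The coding transcript of Orc1 held 94.6% ± 1.17 of its counts in the Bax Bak controls and 87.9% ± 5.48 in the Atr Bax Bak libraries, the rest lying in non-coding transcripts. Its ranges overlapped, at 93.3% to 95.9% in these controls and 81.7% to 95.1% in the Atr Bax Bak libraries. These shares were not tested.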
